A study of Arabidopsis thaliana with 9 samples.

Results

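The transcripts of the chloroplast genome were followed in whole Arabidopsis thaliana seedlings through 64 of the 22746 probe sets tested on an Affymetrix ATH1 array. They were defined by number, as an unbroken run of probe set numbers within those that this array gives to chloroplast genes. The choice of this run was made with earlier results of these data known. The platform annotation gave 61 of them 1 gene symbol each, and 3 carried no name. All 61 named probe sets belong to genes that RefSeq places on the chloroplast genome, so the label held for every one that could be checked. For rpl2, rpl23, ycf2, ndhB, rps7 and ycf1 the probe set matched both copies of the gene in the inverted repeat. The 61 symbols are part of the 78 protein symbols that RefSeq lists for this genome. Another 15 had 16 probe sets outside the run, which are given further on for comparison. Those of rpl32, ccsA and ndhD are numbered directly before the run.

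The chloroplast genome encodes core subunits of the photosystems, the cytochrome b6f complex, the ATP synthase and the NDH complex, the large subunit of Rubisco, and part of the plastid's own ribosome and RNA polymerase. Nuclear genes supply the remaining subunits, which are imported. Most plastid genes lie in units that are transcribed together and then cut, edited and, for some genes, spliced. A bacterial-type polymerase, whose core is encoded by the rpo genes, transcribes photosynthesis genes above all, while a phage-type polymerase encoded in the nucleus transcribes accD, the rpoB unit and other housekeeping genes. Stable plastid mRNAs mostly lack long poly(A) tails. Standard Affymetrix labelling, which the labels name, primes on such tails, so a value here can depend on tailing or internal priming as well as on abundance. Those shares were not tested.

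Columbia-0 seedlings were collected at 8 days of age, on 3 arrays per group. In the SNP group, seedlings in open dishes were enclosed from day 3 for 5 days with a separate dish holding 15 ml of 100 uM sodium nitroprusside, a donor of nitric oxide (NO). In the cPTIO group, 2 ml of the NO scavenger cPTIO at 1 mM was added to the seedlings' own dishes over the same days. Both sets were sealed in 15 cm Petri dishes, whereas the third group is labelled untreated and is called SDW, with no explanation, in the design text. The labels do not say whether untreated seedlings were sealed too, so sealing and agent cannot be told apart. Growth was at 22 °C with 16 h of light and 8 h of dark. The titles name biological replicates, but 3 dishes shared each sealed dish, and the labels do not say whether those dishes are the 3 samples. The p-values therefore cover only the spread among the arrays of a group, part of which may be technical. In whole seedlings, fewer chloroplasts and less RNA per chloroplast cannot be told apart.

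The deposited values are log2 expression values after RMA, which makes the arrays' distributions alike, and all differences below are in log2 units. Array medians ran from 4.473 to 4.598. Of the 64 chloroplast probe sets, 9 averaged less than the lowest of these medians and are not shown to lie above background (atpI, rpoB, petG, rps14, petD, ycf2, ndhB, ndhF and 1 without a name). A transcript is said to be called when limma's p, adjusted by Benjamini-Hochberg over all 22746 probe sets, lay under 0.05. cPTIO replicate 3 stood apart from the other cPTIO arrays, and counts are given with and without it. Of the marker lists for green, root and seed tissue only EXPA7, an expansin of root hairs, had a named probe set. It was 0.98 lower in SNP than in untreated seedlings (adjusted p = 0.0192) and 0.49 lower in cPTIO than in untreated seedlings (adjusted p = 0.144). Its part in the chloroplast results was not tested.

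After cPTIO, 17 of the 64 chloroplast transcripts (26.6%) were called lower than in untreated seedlings and 0 were called higher by limma. At limma's unadjusted p under 0.05 there were 27 lower and 1 higher, beside 2990 lower and 2414 higher of all 22746 probe sets. Of all probe sets tested, 6.59% were called in that comparison, 4.27% lower and 2.32% higher. The median chloroplast change was -0.41, against 0.02 over all probe sets, and 53 of the 64 differences were negative. In 27 transcripts every cPTIO array lay below every untreated array, and in 2 every cPTIO array lay above (13.5% and 13.0% of all probe sets). The count of calls rested on few arrays: it was 23 without cPTIO replicate 3, 6 without cPTIO replicate 1, 3 without untreated replicate 2 and 6 without untreated replicate 3. Over all probe sets the share called was then 9.29%, 1.85%, 0.536% and 2.77%. The chloroplast count was 3 with the SNP arrays left out of the fit, when 1.23% of all probe sets were called. The calls of rpl16 and psbZ held whichever array was left out. Those of petL, rpl14, rpl20 and rps7 were lost only without untreated replicate 2, and each of the other 11 was lost both without cPTIO replicate 1 and without untreated replicate 3.

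After SNP, 4 of 64 (6.25%) were called lower than in untreated seedlings and 0 higher by limma. That stands beside 6.19% of all probe sets called, 3.62% lower and 2.57% higher. The chloroplast share was thus near that of the whole array. At limma's unadjusted p under 0.05, 11 of the 64 were lower and 7 higher, beside 2523 lower and 2216 higher of all 22746 probe sets. The median change was -0.18, against 0.00 over all probe sets, and 37 differences were negative. That median was -0.0428 without untreated replicate 3 and -0.0819 without SNP replicate 3. The SNP arrays lay wholly below the untreated arrays for 12 transcripts and wholly above for 10 (15.9% and 14.0% of all probe sets). Without cPTIO replicate 3, which enters this comparison only through the shared estimate of spread, 10 were called and 11.2% of all probe sets. The count was 2 without SNP replicate 1, SNP replicate 2, untreated replicate 2 or untreated replicate 3, when 2.95%, 2.20%, 2.27% and 3.63% of all probe sets were called. It was 9 with the cPTIO arrays left out of the fit, when 10.7% of all were called.

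The shift of the 64 transcripts can be seen array by array. Relative to the mean of the untreated arrays, the median transcript stood at -0.01, -0.16 and -0.09 on the SNP arrays, at -0.58, -0.48 and -0.17 on the cPTIO arrays and at -0.11, -0.01 and 0.12 on the untreated arrays. The same medians over all probe sets lay between -0.0116 and 0.0256 on the 9 arrays. By the chloroplast medians, cPTIO replicates 1 and 2 carried most of the shift, and cPTIO replicate 3 stood near the SNP arrays. The number of transcripts below the lowest untreated array was 22, 29 and 29 on the SNP arrays, and 46, 50 and 29 on the cPTIO arrays. The share of all probe sets that lay so is not given, so these numbers are not read as a trait of chloroplast transcripts.

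**Figure D1:**
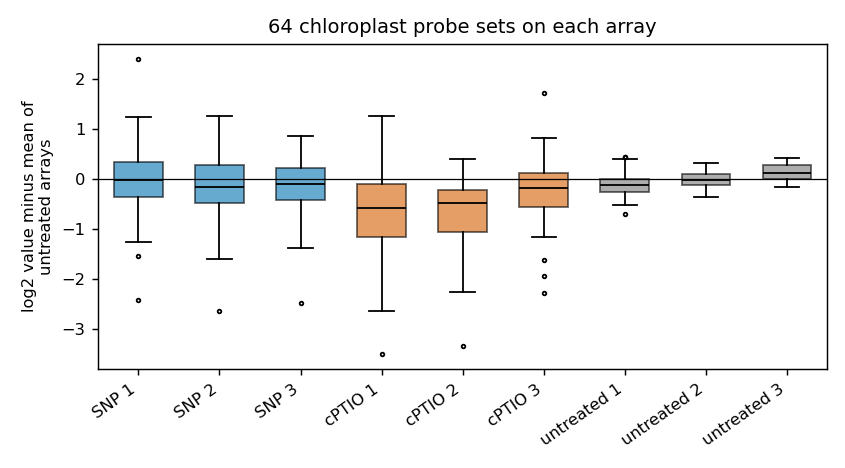
Box plots of the 64 chloroplast probe sets on each of the 9 arrays, as the log2 value minus the probe set's mean over the untreated arrays (boxes, quartiles with the median line; whiskers, 1.5 times the box height; points, probe sets beyond). The medians of cPTIO replicates 1 and 2 are -0.58 and -0.48, and those of the other 7 arrays lie between -0.17 and 0.12.

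The 4 transcripts called lower after SNP, rpl16, rpl20, petL and psbZ, were also called lower after cPTIO, in comparisons that share the untreated arrays. The share of all probe sets called lower after both agents is not given, so this number is not read as a trait of chloroplast transcripts. Of the 64, rpl16 differed most from untreated after either agent. It encodes a protein of the large ribosomal subunit. rpl16 measured 8.00, 7.77 and 7.94 on the SNP arrays, 6.91, 7.07 and 8.13 on the cPTIO arrays, and 10.31, 10.43 and 10.49 on the untreated arrays. No treated array came within 2 units of an untreated one. The difference from untreated was -2.50 ± 0.28 after SNP (SE, adjusted p = 0.00327) and -3.04 ± 0.28 after cPTIO (adjusted p = 0.00425), or 17.6% and 12.2% of the untreated level on the linear scale.

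rpl20, which encodes another protein of the large subunit, measured 7.07, 7.0 and 7.92 on the SNP arrays, 6.90, 6.82 and 6.99 on the cPTIO arrays, and 8.24, 8.55 and 9.0 on the untreated arrays. All treated arrays lay below all untreated ones, with SNP replicate 3 the nearest. The differences were -1.26 ± 0.27 after SNP (SE, adjusted p = 0.0308) and -1.70 ± 0.27 after cPTIO (adjusted p = 0.0146). The SNP call was lost without SNP replicate 1 (adjusted p = 0.104), SNP replicate 2 (0.115), untreated replicate 2 (0.101) or untreated replicate 3 (0.0852).

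The rest of the ribosome was mixed. Of 15 ribosomal protein transcripts, 5 were called lower after cPTIO and 2 after SNP, with medians of 0.01 after SNP and -0.43 after cPTIO. rps7, a small-subunit protein gene of the inverted repeat, measured 10.46, 10.29 and 10.74 on the SNP arrays, 9.13, 9.81 and 10.45 on the cPTIO arrays, and 11.48, 11.59 and 11.51 on the untreated arrays. It was called after cPTIO (-1.73 ± 0.29, adjusted p = 0.0171) and not after SNP (-1.03 ± 0.29, adjusted p = 0.0739), although both treated groups lay wholly below the untreated arrays. rpl14 was alike, with 7.60, 7.54 and 7.14 on the SNP arrays, 6.22, 6.64 and 7.27 on the cPTIO arrays and 8.29, 8.18 and 8.56 on the untreated arrays. Its differences were -0.92 ± 0.25 after SNP (adjusted p = 0.0736) and -1.64 ± 0.25 after cPTIO (adjusted p = 0.0144). rps4, whose protein starts small-subunit assembly in bacteria, was the other ribosomal call after cPTIO, at -0.87 (adjusted p = 0.0390).

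Other ribosomal transcripts showed no call in either comparison against untreated seedlings. rpl36, rps18 and rpl33 were 0.77, 0.49 and 0.44 higher after SNP on average, with every SNP array above every untreated array, and adjusted p-values of 0.149, 0.182 and 0.456. After cPTIO the same genes stood at -0.17, -0.19 and 0.01. rpl2, rpl22, rpl23, rps3 and rps19 differed from untreated by between -0.21 and 0.31 after SNP and between -0.43 and -0.12 after cPTIO. rps2 stood at 0.29 after SNP and -0.70 after cPTIO, with all SNP arrays above all cPTIO arrays (SNP minus cPTIO 1.00 ± 0.23, adjusted p = 0.0553). rps14 was dim.

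**Figure D2:**
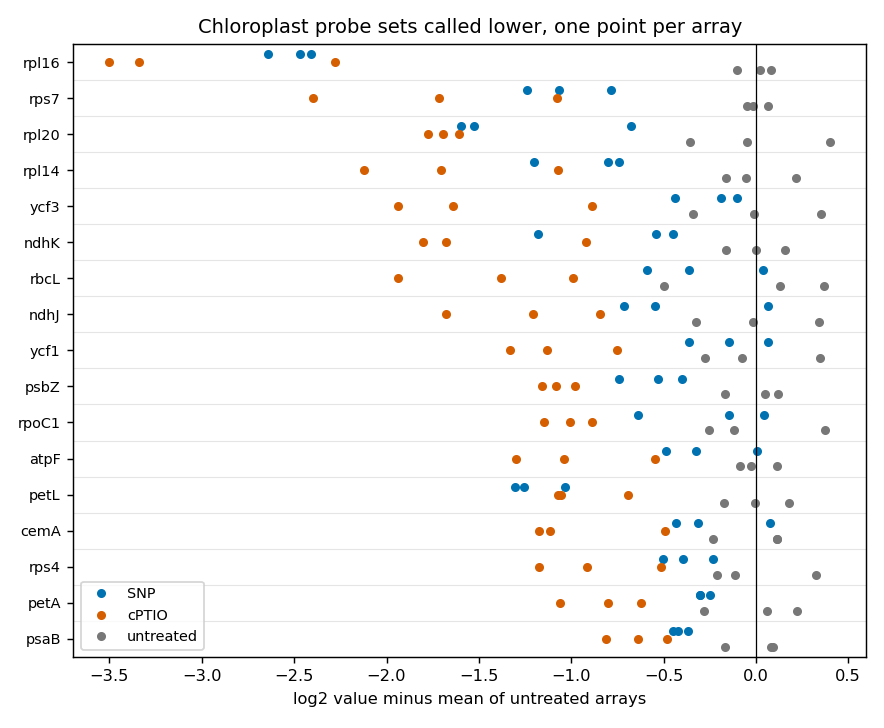
The 17 chloroplast transcripts called lower after cPTIO, which include the 4 called lower after SNP, as the log2 value on each array minus the mean of the untreated arrays (1 point per array). All cPTIO points lie below all untreated points in each row, and rpl16, whose mean differences are -2.50 after SNP and -3.04 after cPTIO, lies lowest.

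Neighbouring genes of the ribosomal cluster did not differ alike from untreated seedlings. rpl16 and rpl14 lie side by side in the unit that runs through rpl23, rpl2, rps19, rpl22, rps3, rpl16, rpl14 and rpl36 to rpoA. Of 9 measured members of this unit, rpl16 and rpl14 were called lower after cPTIO and rpl16 after SNP. The nearest named neighbours on either side were not: rps3 differed by 0.03 after SNP and -0.41 after cPTIO, and rpl36 by 0.77 and -0.17. Over the 9 arrays, which share the 3 groups, values of rpl16 and rpl14 correlated at r = 0.93, whereas rpl16 and rpl36 correlated at r = -0.06. These were the highest and lowest of the unit's 36 pairs, whose median was 0.56. With group means removed the unit's median was 0.70, so its transcripts varied together within the groups.

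**Figure D3:**
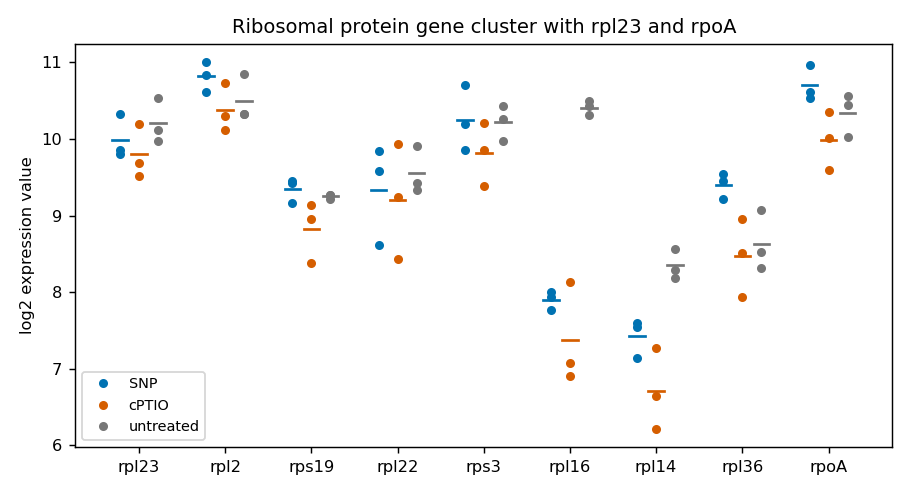
Log2 expression values of 9 transcripts of the ribosomal protein cluster, in order along the unit (1 point per array, bars at group means, SNP, cPTIO and untreated from left to right within each gene). For rpl16 and rpl14 all 6 treated arrays lie below the untreated arrays, whereas for rpl36 the SNP arrays lie above them.

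The transcripts whose values over the 9 arrays were most like those of rpl16 were psaB (r = 0.94), rps7 (0.94), atpI (0.94), rpl14 (0.93) and rpl20 (0.91), of which rpl14 alone shares its unit. atpI was dim, between 3.01 and 3.41 on the 9 arrays. Over all units, the median correlation was 0.49 for 87 pairs of transcripts within a unit and 0.35 for 1743 pairs across units. With group means removed, the medians were 0.42 and 0.25. These are descriptions of 9 arrays, and the spread within units was wide. In the psaI, ycf4, cemA and petA unit, pairs correlated between 0.63 and 0.85, and changes after cPTIO lay between -0.99 and -0.82. In contrast, ndhJ and ndhK correlated at 0.92, while ndhC, in the same unit, correlated with ndhK at -0.07.

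Photosystem II, which splits water, stood near its untreated level after cPTIO. Its 13 transcripts had medians of 0.22 after SNP and 0.02 after cPTIO. psbZ, a small subunit at the interface with the antenna, was the only one called. It measured 9.54, 9.67 and 9.33 on the SNP arrays, 9.09, 8.99 and 8.91 on the cPTIO arrays, and 9.90, 10.12 and 10.19 on the untreated arrays. The 3 groups did not overlap, in the order cPTIO, SNP, untreated. Its differences from untreated were -0.56 ± 0.12 after SNP (adjusted p = 0.0307) and -1.07 ± 0.12 after cPTIO (adjusted p = 0.00609). The SNP call was lost without any 1 SNP array or without untreated replicate 2 or 3 (adjusted p up to 0.115).

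The genes of the reaction centre and inner antenna showed no such fall. psbB, for the inner antenna protein CP47, measured 7.98, 7.87 and 8.28 on the SNP arrays, 8.31, 7.19 and 7.83 on the cPTIO arrays, and 7.69, 7.26 and 7.61 on the untreated arrays. The cPTIO and untreated arrays overlapped, and the 95% confidence interval of the cPTIO difference ran from -0.35 to 0.86. psbD and psbC, for the D2 protein and CP43, which share a unit with psbZ, differed by -0.01 and -0.18 after cPTIO. psbE, psbF, psbL and psbJ, the cytochrome b559 unit, stood between 0.21 and 0.42 above untreated after SNP and between 0.02 and 0.21 after cPTIO, with 0 of 4 called. psbL came nearest, with all SNP arrays above all untreated arrays (0.42 ± 0.12, adjusted p = 0.0706). psbI, psbN, psbM, psbH and psbT, for small subunits or assembly, stood between -0.13 and 0.72 after SNP and between -0.19 and 0.18 after cPTIO, with no call.

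psbA, for the D1 protein, lies outside the numbered run but is the best known gene of this complex. It measured 11.01, 11.41 and 11.59 on the SNP arrays, 11.70, 11.11 and 11.58 on the cPTIO arrays, and 11.67, 11.79 and 11.74 on the untreated arrays. The SNP arrays lay below the untreated ones without overlap, yet the difference was not called (-0.39, adjusted p = 0.276). After cPTIO the groups overlapped (-0.27, adjusted p = 0.422).

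Photosystem I had 4 transcripts, of which psaB, for a reaction centre protein, was called after cPTIO. Its differences were -0.41 after SNP (adjusted p = 0.0659) and -0.64 after cPTIO (adjusted p = 0.0180), with both treated groups wholly below untreated. psaA, for the partner protein in the same unit, measured 7.94, 7.36 and 6.02 on the SNP arrays, 7.52, 6.89 and 7.96 on the cPTIO arrays, and 7.30, 7.30 and 7.56 on the untreated arrays. All groups overlapped, and its sign depended on single arrays. The intervals of its differences were wide, from -1.32 to 0.77 after SNP and from -0.98 to 1.11 after cPTIO. psaI and psaJ, for small subunits, differed by -0.48 and -0.18 after SNP and by -0.99 and -0.04 after cPTIO, with no call.

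In the cytochrome b6f complex, which links the photosystems, petL was called after both agents and petA after cPTIO. petL, for a small subunit, measured 8.80, 8.75 and 9.02 on the SNP arrays, 8.98, 9.36 and 9.0 on the cPTIO arrays, and 9.88, 10.23 and 10.05 on the untreated arrays. Treated and untreated arrays did not overlap, and petL was lower on average after SNP than after cPTIO. The differences from untreated were -1.20 ± 0.14 after SNP (adjusted p = 0.00374) and -0.94 ± 0.14 after cPTIO (adjusted p = 0.0128). petA, for cytochrome f, differed by -0.28 after SNP (adjusted p = 0.334) and -0.82 after cPTIO (adjusted p = 0.0215).

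petB, for cytochrome b6, measured 12.20, 12.16 and 11.67 on the SNP arrays, 11.82, 11.93 and 11.76 on the cPTIO arrays, and 11.95, 11.61 and 12.13 on the untreated arrays. The groups overlapped, and the 95% interval was -0.28 to 0.52 after SNP and -0.46 to 0.34 after cPTIO. petN, for another small subunit, stood wholly below untreated in both treated groups without a call (-0.58 after SNP and -0.65 after cPTIO). petG and petD were dim.

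Of the 6 ATP synthase transcripts, atpF alone was called, after cPTIO (-0.96, adjusted p = 0.0307), with -0.27 after SNP (adjusted p = 0.513). atpF encodes a subunit of the peripheral stalk. atpA, for the alpha subunit and next to atpF, had the highest mean difference of all 64 transcripts after both agents. It measured 9.96, 8.82 and 8.42 on the SNP arrays, 8.82, 7.79 and 9.27 on the cPTIO arrays, and 7.23, 7.65 and 7.77 on the untreated arrays. Every treated array lay above every untreated array, but the treated arrays spread widely and no call was made (1.52 ± 0.46 after SNP, adjusted p = 0.0944; 1.07 ± 0.46 after cPTIO, adjusted p = 0.200). Its values are given here because of this size, after they had been seen.

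atpB, for the catalytic beta subunit, measured 12.47, 12.12 and 12.00 on the SNP arrays, 12.03, 12.32 and 12.50 on the cPTIO arrays, and 12.07, 12.42 and 12.66 on the untreated arrays. The 3 groups overlapped, with intervals from -0.62 to 0.25 after SNP and from -0.54 to 0.34 after cPTIO. atpE, its partner in the same unit, was 0.19 below untreated after SNP and 0.20 below after cPTIO, with no call. atpH, for the membrane ring, differed by -0.04 after SNP and -0.40 after cPTIO.

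rbcL, for the large subunit of the carbon-fixing enzyme Rubisco, was called after cPTIO. It measured 9.17, 8.94 and 9.57 on the SNP arrays, 8.15, 8.54 and 7.59 on the cPTIO arrays, and 9.03, 9.66 and 9.90 on the untreated arrays. The cPTIO arrays lay below all others, and the SNP and untreated arrays overlapped. The difference from untreated was -0.30 ± 0.30 after SNP (adjusted p = 0.652) and -1.43 ± 0.30 after cPTIO (adjusted p = 0.0319), or 37.0% of the untreated level after cPTIO.

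The NDH complex, which returns electrons around photosystem I, had 2 of 5 transcripts called after cPTIO. ndhK measured 6.38, 5.74 and 6.47 on the SNP arrays, 5.12, 5.24 and 6.0 on the cPTIO arrays, and 6.76, 7.08 and 6.92 on the untreated arrays. Both treated groups lay below untreated, with differences of -0.72 ± 0.26 after SNP (adjusted p = 0.161) and -1.47 ± 0.26 after cPTIO (adjusted p = 0.0212). ndhJ differed by -0.40 after SNP (adjusted p = 0.487) and -1.24 after cPTIO (adjusted p = 0.0390). ndhC, in the same unit, differed by 0.33 and -0.05. ndhB, which is dim, measured 3.74, 3.47 and 4.58 on the SNP arrays, 3.34, 3.11 and 3.8 on the cPTIO arrays, and 3.81, 4.02 and 3.76 on the untreated arrays. Its groups overlapped.

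Of the 4 genes for the plastid RNA polymerase, rpoC2 was called between the agents and rpoC1 between cPTIO and untreated seedlings. rpoC2 measured 7.66, 7.70 and 7.56 on the SNP arrays, 6.17, 6.86 and 6.76 on the cPTIO arrays, and 7.25, 7.10 and 7.60 on the untreated arrays. All SNP arrays lay above all cPTIO arrays. The SNP minus cPTIO difference was 1.04 ± 0.19 (adjusted p = 0.0289), while the differences from untreated were 0.32 after SNP (adjusted p = 0.405) and -0.72 after cPTIO (adjusted p = 0.0660). The call between the agents was lost without any 1 SNP array.

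rpoC1 measured 9.64, 9.45 and 8.96 on the SNP arrays, 8.45, 8.59 and 8.71 on the cPTIO arrays, and 9.34, 9.48 and 9.97 on the untreated arrays. The cPTIO arrays lay lowest, and the call against untreated (-1.01 ± 0.21, adjusted p = 0.0309) contrasted with -0.25 after SNP (adjusted p = 0.582). rpoA stood at 0.37 after SNP and -0.35 after cPTIO, with no call. rpoB was dim, with values between 3.14 and 3.69 on the 9 arrays.

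The remaining genes lay lower after cPTIO than after SNP as well. ycf3, for an assembly factor of photosystem I, measured 7.48, 7.14 and 7.39 on the SNP arrays, 5.64, 5.94 and 6.69 on the cPTIO arrays, and 7.24, 7.57 and 7.93 on the untreated arrays. The cPTIO arrays lay below all others. Its difference from untreated was -0.24 after SNP (adjusted p = 0.701) and -1.49 ± 0.27 after cPTIO (adjusted p = 0.0221), and the SNP minus cPTIO difference was 1.25 ± 0.27 (adjusted p = 0.0498), a call that held in 1 of 9 fits with an array left out, the one without cPTIO replicate 3. ycf1, for a part of the import machinery at the inner envelope, was called after cPTIO (-1.07, adjusted p = 0.0245), as was cemA, for an envelope membrane protein (-0.93, adjusted p = 0.0400). After SNP these genes stood at -0.15 and -0.22.

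accD, for a subunit of the acetyl-CoA carboxylase that starts fatty acid synthesis, measured 7.24, 6.62 and 6.89 on the SNP arrays, 4.98, 5.36 and 7.08 on the cPTIO arrays, and 7.11, 7.76 and 7.95 on the untreated arrays. cPTIO replicate 3 lay well above the other cPTIO arrays and just under untreated. The cPTIO difference of -1.80 ± 0.50 was not called (adjusted p = 0.0711), and without that array it was -2.44 and called. clpP, for a protease subunit, measured 11.21, 10.99 and 11.04 on the SNP arrays, 9.84, 10.31 and 11.16 on the cPTIO arrays, and 11.23, 11.46 and 11.66 on the untreated arrays. Its cPTIO difference was -1.02 ± 0.29 (adjusted p = 0.0782), and it too was called without cPTIO replicate 3, at -1.38. ycf2, the longest gene of the genome, was dim, with values between 3.91 and 4.91. The 3 probe sets without a name ranged from -0.36 to 0.99 after SNP and from -1.01 to 0.15 after cPTIO, with no call.

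**Figure D4:**
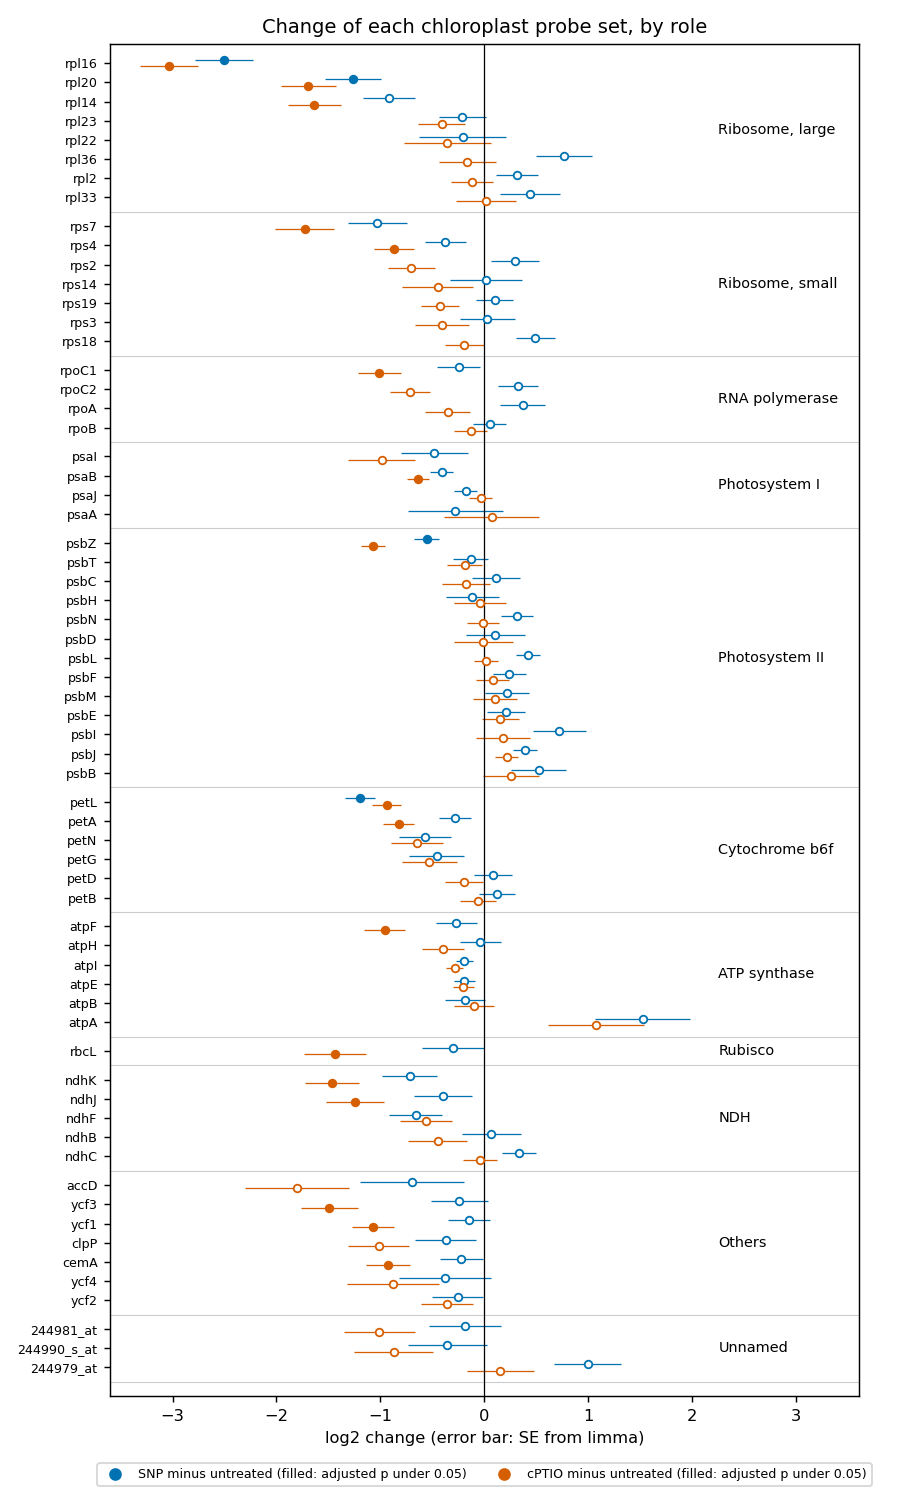
Log2 difference from untreated for each of the 64 chloroplast probe sets (blue, SNP; orange, cPTIO; error bars, SE from limma; filled circles, adjusted p under 0.05), grouped by role. After cPTIO 17 circles are filled, all left of 0, and 1 of them is among the 13 photosystem II transcripts. After SNP 4 are filled.

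Taken by role, the 30 transcripts for the photosystems, the cytochrome b6f complex, the ATP synthase and Rubisco had 6 calls and a median of -0.14 after cPTIO. The other 31 named transcripts had 11 calls and a median of -0.70, with 30 of 31 negative. After SNP the medians were -0.12 and -0.21, with 2 calls in each set. The difference between these sets was not tested, and the roles were chosen with earlier results of these data known. Of 7 transcripts commonly assigned to the bacterial-type polymerase, 2 were called after cPTIO (median -0.01), and of 4 commonly assigned to the phage-type polymerase, 1 was called (median -0.87). A list of genes with introns was drawn up after the values had been seen. Its 9 genes within the numbered run had 4 calls after cPTIO (rpl16, ycf3, rpoC1 and atpF) and a median of -0.96. For named genes of the run without introns, these were 13 of 52 and -0.38. Outside the run the list also holds rps12 and rps16, called lower after cPTIO, and ndhA, which was not called (-0.49).

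Compared directly, SNP and cPTIO seedlings differed in 2 of 64 chloroplast transcripts, rpoC2 and ycf3, both higher in SNP. This count comes from the fit with group as the sole term. The errors, intervals and adjusted p-values of single transcripts in this comparison come from the same fit, which ignores any pairing of arrays. Of all probe sets 3.26% were called, 1.68% higher and 1.59% lower. The median difference was 0.43, against -0.02 over all probe sets, and 58 of 64 transcripts were higher on average in SNP. The SNP arrays lay wholly above the cPTIO arrays for 20 transcripts and wholly below for 1 (10.1% and 11.1% of all probe sets). With the replicate number as a block, since these arrays were taken as paired, 4 were called (3.26% of all probe sets) when the untreated arrays stayed in the fit, and 0 (1.24% of all) when the block was fitted to these 2 groups alone. Without cPTIO replicate 3 the count was 16, the median difference 0.62, and 5.77% of all probe sets were called. The count was 0 without SNP replicate 1 (0.967% of all probe sets called), without SNP replicate 2 (0.708%) or with the untreated arrays left out (1.17%). It was 1 without cPTIO replicate 1 (1.58%) or 2 (2.88%) or untreated replicate 1 (2.655%) or 2 (1.86%). These counts were thus as low as the shares of the whole array.

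For the 4 transcripts low after both agents, SNP and cPTIO seedlings were not called apart. The SNP minus cPTIO difference was 0.53 for rpl16 (95% interval -0.11 to 1.17), 0.43 for rpl20 (-0.18 to 1.04), -0.26 for petL (-0.58 to 0.06) and 0.52 for psbZ (0.25 to 0.78, adjusted p = 0.0548). rbcL was 1.13 higher in SNP (0.45 to 1.82) without passing the adjustment (adjusted p = 0.0864).

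**Figure D5:**
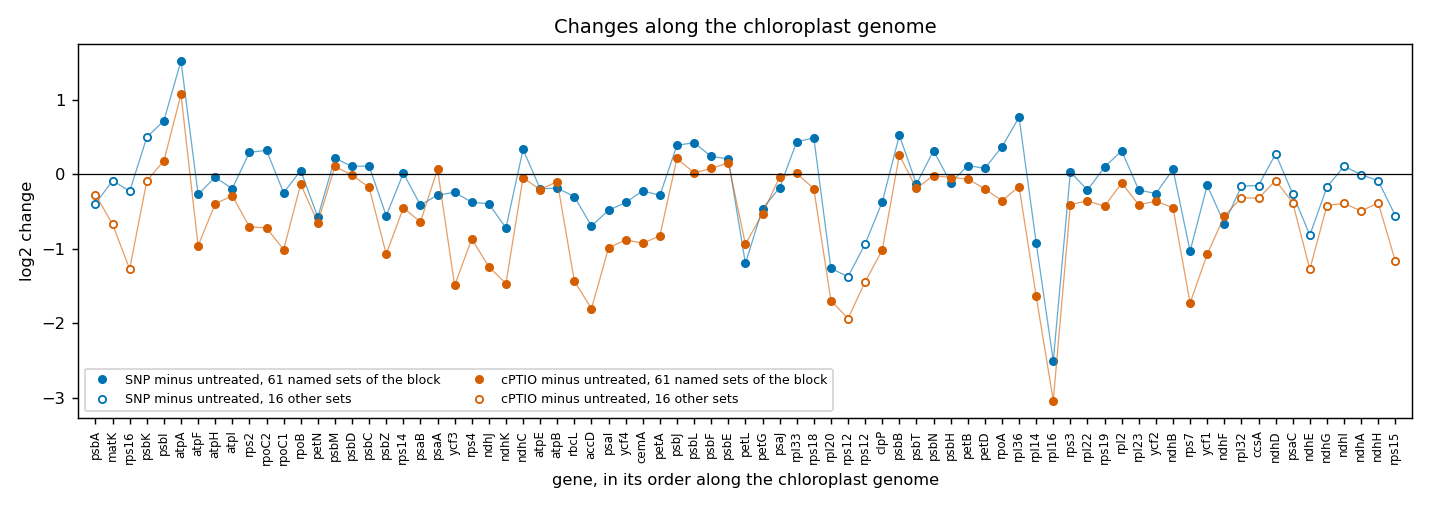
Log2 difference from untreated (blue, SNP; orange, cPTIO) for 77 named chloroplast probe sets in the order of their genes along the chloroplast genome (filled, the 61 named sets of the numbered run; open, the 16 other chloroplast sets; genes of the inverted repeat drawn once). The orange points lie below the blue ones for most genes, and the values at rpl16, -2.50 and -3.04, are the lowest of each colour.

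The 16 chloroplast probe sets outside the run measure 15 further genes on the same 9 arrays, so they are not an independent experiment. After cPTIO, 6 (37.5%) were called lower and 0 higher, beside 4.27% and 2.32% of all probe sets. The median was -0.40 and all 16 differences were negative. The 6 are listed next. They were both probe sets for rps12, a small-subunit protein gene (-1.94 and -1.44), ndhE (-1.27), rps16 (-1.27), rps15 (-1.17) and matK, the plastid splicing factor gene (-0.67). After SNP 0 were called by limma (6.19% of all probe sets) and the median was -0.17. At limma's unadjusted p under 0.05 there were 4 of the 16, beside 4739 of all 22746 probe sets. rps16 was 1.04 higher in SNP than in cPTIO seedlings (adjusted p = 0.0341), a call that held in 7 of 17 alternative fits. The cPTIO calls held in 14 of 17 for rps16, 12 for ndhE, 11 and 8 for the rps12 probe sets, 11 for matK and 9 for rps15.

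No mitochondrial transcript and no nuclear photosynthesis gene with a named probe set was called lower. Of all probe sets 3.62% were called lower after SNP and 4.27% after cPTIO, so 0 among so few probe sets marks no contrast. Called higher were 2.57% and 2.32% of all. Of 7 mitochondrial probe sets with names, 5 of them dim, 0 were called lower, nad4 was called higher after SNP (0.76) and nad7, a dim one, after cPTIO (0.68). Their medians were 0.13 and 0.42. Of 6 nuclear genes for photosystem, cytochrome b6f and ATP synthase subunits (PSAE1, PSAN, PSBW, PSBY, PETM and ATPC1), 0 were called in either comparison by limma. At limma's unadjusted p under 0.05 there were 0 after SNP and 1 after cPTIO, beside 4739 and 5404 of all 22746 probe sets. The differences of the 6 genes ran from -0.26 to 0.25 after SNP and from 0.03 to 0.25 after cPTIO. RPOTmp, for a phage-type polymerase, was dim and differed by -0.38 after SNP and -0.13 after cPTIO, with no call.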

How the data were processed

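Total RNA from 9 samples was hybridised to ATH1 arrays, 1 per sample. Each deposited value is the log2 expression of 1 probe set on 1 array, made with RMA per the submitters' processing notes, which also list limma and state no version. RMA gives all arrays 1 distribution before it combines the probes of a set, so it can take away a shift common to most genes. Scanner files and detection calls were not used here.

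Groups and replicate numbers came from the sample titles. The 64 AFFX control probe sets were set aside and 22746 were fitted without a filter, using limma 3.58.1 in R 4.3.3 with group as the sole term over all 9 arrays, eBayes without a trend, and two-sided p-values adjusted by Benjamini-Hochberg within each comparison. The fit was tested on simulated data. Tables and figures used Python 3.11.15 with pandas 2.3.3, numpy 2.4.6 and matplotlib 3.10.9. The number of arrays limits the precision. Levels were not compared between probe sets.

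Names came from GEO's platform annotation, which covers 14016 probe sets (13513 with 1 symbol and 503 with several) and left 8730 of those tested unnamed, and gene order came from RefSeq's assembly TAIR10.1. Only 8 of 68 loci on the nuclear lists had a named probe set. No locus was matched for sigma factors or for proteins bound to the bacterial-type polymerase, nor for the green and seed markers, and those lists are not reported.

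The chloroplast transcripts, roles and lists were chosen with earlier results of these data known. Values per array are given for up to 6 called transcripts with the largest change in each direction of a comparison and for psbA, rbcL, psaA, psbB, petB, atpB, ndhB, rpoC1, accD and clpP. For rpoB and ycf2, which were dim, only the range over the arrays is given. Correlations over arrays carry no p.

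The labels number replicates 1 to 3 in each group. Deviations from group means correlated between same-numbered SNP and cPTIO arrays at 0.257, 0.305 and 0.417, so those were taken as paired, on the data and not the labels. This pairing entered only the fits with a replicate block, not the main fit. The other pairs of groups gave between -0.0174 and 0.127 and were taken as unpaired. The 17 alternatives left out each array, used 2 groups only, a replicate block with 3 or 2 groups, array weights, arrays centred on their median, an intensity trend or plain probe sets only, or left out dim probe sets.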

Additional observations from a re-analysis of the deposited data

Results flagged for a closer look

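Of the control signals outside the comparisons, BioC and ubiquitin separated treated from untreated arrays. The hybridisation spike-in BioC, a bacterial RNA added to each sample, was 2.12 log2 units higher on the treated arrays, at 7.77 to 8.71, against 6.14 to 6.5 on the untreated arrays. The probe sets for plant ubiquitin were 0.34 higher, at 11.28 to 11.41 on treated and 10.98 to 11.03 on untreated arrays. The other hybridisation spike-ins, BioB, BioD and cre, were 0.35, 0.21 and 0.125 higher on average on the treated arrays, with overlap. The controls dap, thr, phe and lys were 0.999, 0.51, 0.42 and 0.23 higher on average, also with overlap. Actin was 0.12 higher, while GAPDH, 25S rRNA and 5S rRNA differed by -0.15, -0.157 and -0.22, all with overlap. cPTIO replicate 3 was the lowest of the 9 arrays for BioB (6.25), BioD (9.48), cre (11.71), actin (8.88) and GAPDH (11.05). BioC and ubiquitin split the arrays just as treatment did, so what goes with that split cannot be told apart from treatment here. The part of these signals in the chloroplast differences was not tested. The 3-prime minus 5-prime signal of actin and GAPDH differed by 0.015 between treated and untreated arrays.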

How the results depend on the processing

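The count after SNP (4) ran from 2 to 10 when single arrays were left out (2.20% to 11.2% of all probe sets called). It was 9 with the 2 groups only (10.7% of all) and 16 with array weights (15.7% of all). The count after cPTIO (17) ran from 3 to 23 with single arrays left out (0.536% to 9.29% of all probe sets called). It was 3 with the 2 groups only (1.23% of all) and 0 with a replicate block in those 2 groups (0.00% of all). With a replicate block over all 9 arrays it was 15 (7.09% of all). The count between SNP and cPTIO (2) ran from 0 to 16 with single arrays left out (0.708% to 5.77% of all probe sets called). With the 2 groups only it was 0, both without a replicate block (1.17% of all) and with it (1.24%). Array weights gave 19 (7.26% of all). It was 4 with a replicate block (3.26%), centred arrays (3.56%), dim probe sets left out (5.84%) or an intensity trend (3.16%). The median changes ran from -0.21 to -0.0428 after SNP, from -0.61 to -0.31 after cPTIO and from 0.31 to 0.62 between SNP and cPTIO with single arrays left out. rpl16 and petL were called after SNP in 17 of 17 alternatives, and rpl16 and psbZ after cPTIO in 16 of 17, all but the replicate block in 2 groups. Of 952 values of named genes under alternatives, 799 kept their direction and side of the threshold, 118 lost a call, 13 gained one and 22 turned sign. None of those 22 was called. With single arrays left out, the ranges that crossed 0 after SNP were -0.0897 to 0.18 for rpoB, -0.26 to 0.30 for ndhB, -0.70 to 0.26 for psaA and -0.0271 to 0.29 for petB. After cPTIO they were -0.18 to 0.35 for psaA, -0.26 to 0.0412 for atpB, -0.0098 to 0.55 for psbB and -0.21 to 0.0568 for petB. Between SNP and cPTIO they were -0.30 to 0.0419 for psbA, -0.77 to 0.20 for psaA, -0.22 to 0.0225 for atpB, -0.0267 to 0.53 for psbB and -0.14 to 0.23 for ycf2. Array weights gave -0.12 for ndhB after SNP, 0.0545 for petB and -0.21 for psaA after cPTIO, and 0.16 for psaA between SNP and cPTIO. Centring gave 0.0024 for petB after cPTIO. The causes were not tested. Differences of dim transcripts are limited by their signal over background, which was not measured.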
